A study of Triticum aestivum with 12 samples.

Results

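Bread wheat carries the A, B and D subgenomes, each with 7 chromosomes. The loci described here lie in the interior of the D chromosomes. A locus is a section of the genome covered by reads of at least 1 of the 12 libraries. Loci of chromosomes 1D to 7D were members if their midpoint fell between 15% and 85% of the chromosome length, which was taken as the last base covered by any locus. The last annotated gene of each D chromosome ended within 0.0248% of the length of that end, so the chromosome names matched the annotation. The rule gave 2353885 members of 11509120 loci (20.45%), spread over 2801.0 Mb. No count was used to choose them.

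The samples were leaves of the winter wheat variety Mv Béres, grown in modified Hoagland solution at 250 µmol per m2 per s under white (W) or blue (B) light. Blue made up 32.32% of the W and 82.14% of the B light, green 45.71% and 1%, red 20.71% and 16.7%, and far-red 1.25% and 0.17%. Plants received no putrescine (C) or 0.5 mM putrescine (PUT, P) in the solution for 7 days. The groups were WC (white light control), WP (white light with PUT), BC (blue light control) and BP (blue light with PUT). Each had 3 libraries, which the study describes as independent biological repetitions. The study ran 3 independent experiments and took the methylation profile from the experiment it presented as most representative. The study asked how far the light spectrum and PUT, alone and together, change DNA methylation in the leaf.

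In MeDIP-seq an antibody pulls down DNA fragments that carry 5-methylcytosine, and the reads of the pulled-down fragments are counted. Cereal chromosomes are organized along their length. Genes and recombination are concentrated towards both ends, whereas the interior around the centromere is rich in transposable elements. In plants such elements are kept silent by dense cytosine methylation in every sequence context. Many transcribed genes carry methylation too, mostly within the gene body and at CG sites. The D subgenome comes from a wild goat grass and is the smallest of the 3. The counts measure how often a fragment was pulled down and read, not the methylated share of its cytosines. The plants were not of the variety whose genome served as the reference, and no mapping-quality filter is given in the sources used here, so reads from near-identical copies in the A and B subgenomes or in repeats could be placed on a D locus or the reverse.

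The libraries held 15812048 to 21355140 counts, of which 3580061 to 4930101 fell on members. Member loci were 560 bp long at the median and covered 67.52% of the bases of the D interior, more than in the D distal segments (56.18%), the A interior (64.85%) or the B interior (61.0%). Most members were seen in few libraries. A count was found in 1 library only at 29.0% of them, against 32.1% of all loci, and in all 12 libraries at 1.21%, against 0.889% of all loci. The single-library members held 4.74% of the member count, and those seen in every library held 8.89%. The filter of the study, which asks that 2 or more libraries of 1 group exceed a count of 10, was reached by 140332 members (5.96%), compared with 3.48% in the D distal segments, 5.07% in the A interior and 4.98% in the B interior. These members are the ones tested below. They had a median length of 2393 bp and a median mean count of 8.17, and they held 22.22% to 34.14% of the member count of a library. One library stood apart. WC replicate 1 had a count at only 14.6% of the members, with a mean of 10.4 counts per covered member, whereas the other 11 libraries had a count at 23.6% to 40.9% of the members with means between 4.68 and 7.39. Its TMM scaling factor was 1.49, and the others lay between 0.82 and 1.07.

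The D interior had the highest count density of the segments compared. Count density is the CPM (counts scaled to the nuclear total of a library) per Mb of chromosome. It was 82.9 ± 2.37 in the D interior (SD, n = 12 libraries), with libraries from 79.4 to 85.8. It was 62.3 ± 2.21 in the D distal segments, 76.7 ± 1.62 in the A interior and 71.9 ± 0.723 in the B interior. The D interior was higher in 12 of 12 libraries in each of these pairs, by 20.7 over the D distal segments, by 6.23 over the A interior and by 11.1 over the B interior. A two-sided exact permutation test that changes signs within libraries gave p = 0.000488 for each, the smallest p it allows here, and the adjusted p was 0.00179 over the 33 library-level tests (Benjamini-Hochberg). The share of loci with a count was also highest in the D interior in 12 of 12 libraries, with a mean of 31.4% against 26.5%, 30.3% and 29.8% (p = 0.000488 each, the same permutation test). The mean count per covered locus was 6.30 in the D interior and 5.75, 6.05 and 6.06 in the other segments, again highest in 12 of 12 libraries (p = 0.000488 each, the same permutation test). Gene density did not follow one order with count density across segments, with 6.13 protein-coding genes per Mb in the D interior, 13.8 in the D distal segments, 4.66 in the A interior and 5.22 in the B interior.

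**Figure D1:**
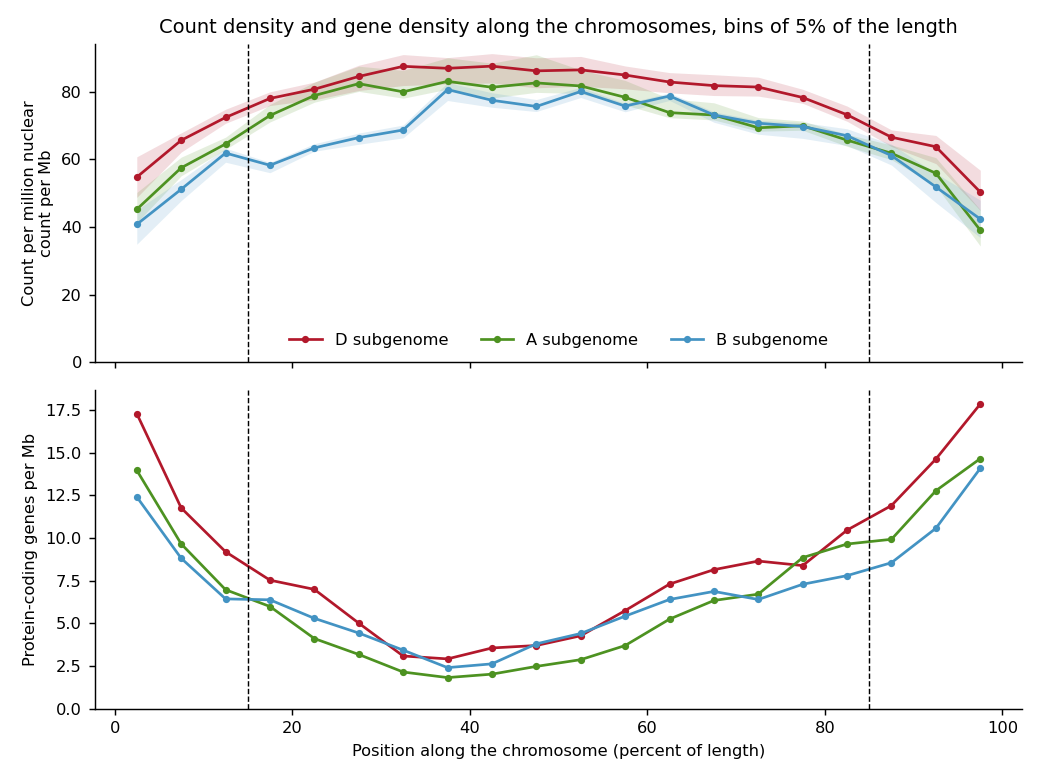
Upper panel, count density (CPM of nuclear counts per Mb) in bins of 5% of the chromosome length, for the 7 chromosomes of each subgenome together (line, mean of 12 libraries; band, lowest to highest library). Lower panel, annotated protein-coding genes per Mb in the same bins. Dashed lines mark 15% and 85% of the length. The D line peaks between 30% and 45% of the length, where genes are fewest, and falls towards both ends.

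Within the D interior, the count density rose towards the gene-poor middle. In bins of 5% of the length over the 7 chromosomes, it was 78.1 just inside the 15% limit and 73.2 just inside the 85% limit, and its highest values were 87.5 (30% to 35% of the length) and 87.6 (40% to 45%). The bin from 35% to 40% had the fewest protein-coding genes, 2.92 per Mb, and a density of 87.0. The last interior bin had the most genes, 10.5 per Mb, and the lowest density. The share of loci passing the filter moved in the same way, from 4.71% in the last interior bin to 6.83% in the bin from 40% to 45%. At the limits of the rule, the density was 75.8 ± 1.91 in the last 1% of the length outside the 15% limit and 78.7 ± 1.78 in the first 1% inside it, and 73.0 ± 1.69 inside and 72.5 ± 1.66 outside the 85% limit (SD, n = 12 libraries).

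The 7 chromosomes had similar levels but different shapes. Chromosome 4D had the highest interior density, with a median of 87.2 over the libraries and a range from 82.1 to 90.4, and 5D the lowest, with a median of 80.2 and a range from 77.7 to 81.8. These ranges did not overlap. The medians of the other chromosomes lay between 82.0 (7D) and 84.2 (6D), and their ranges overlapped. Chromosome 4D also had the highest share of members passing the filter (6.59%) and 5D the lowest (5.49%). The bin of highest density lay at 25% to 30% of the length on 5D (88.1), at 30% to 35% on 1D (90.8), at 35% to 40% on 2D (90.7), at 40% to 45% on 3D (91.5), at 45% to 50% on 4D (92.8) and 7D (89.7), and at 50% to 55% on 6D (94.3). On 1D, 2D and 5D this was also the bin with the fewest genes. The lowest bin of the D interior was at 80% to 85% of 1D, with a density of 55.7 and 11.7 genes per Mb. None of the chromosome shares of the member count differed between light conditions or between PUT and control at an adjusted p below 0.05. The largest differences were those of 5D, 0.173 percentage points higher under B than under W light (exact permutation test, p = 0.0714, adjusted p = 0.118) and 0.184 points lower with PUT than without (exact permutation test, p = 0.0498, adjusted p = 0.103, 6 libraries against 6).

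**Figure D2:**
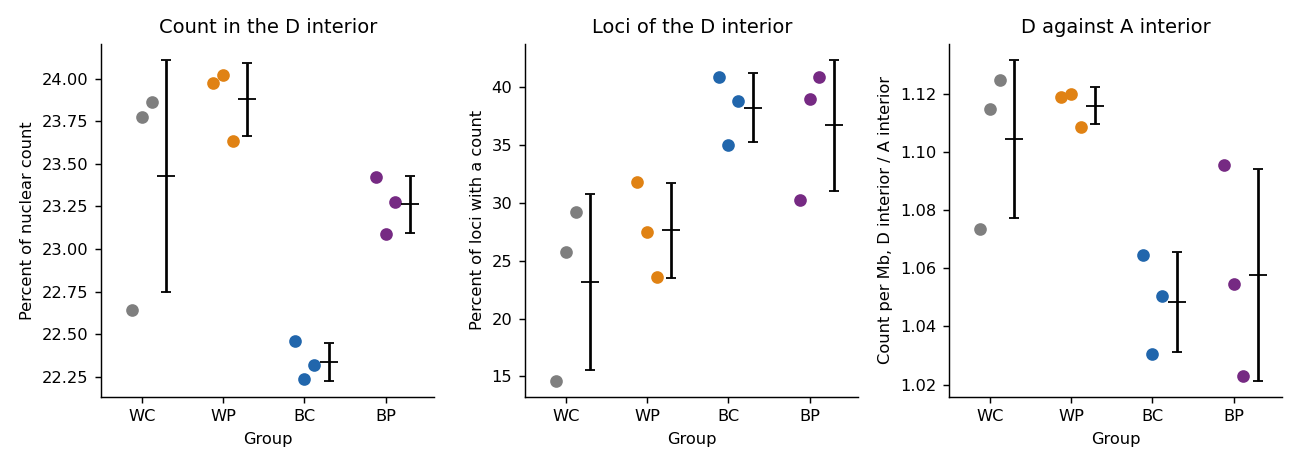
Left, percent of the nuclear count on members of the D interior. Middle, percent of members with a count. Right, count density of the D interior divided by that of the A interior. Points are libraries, and bars to their right are the mean and SD of 3 libraries. All 6 libraries under blue light except BP replicate 1 (1.10) lie below every white light library in the right panel.

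Between the light conditions, the D interior differed in 2 ways that passed the test. Under B light more members had a count, and the density of the D interior was lower in relation to that of the A interior. A count was found at 14.6%, 25.7% and 29.2% of the members in the WC libraries, at 31.8%, 27.5% and 23.6% in WP, at 40.9%, 35.0% and 38.8% in BC, and at 30.3%, 39.0% and 40.9% in BP. All libraries under B light except BP replicate 1 lay above every library under W light. The means were 37.5% ± 4.12 under B and 25.4% ± 5.996 under W light, a difference of 12.1 percentage points (two-sided exact permutation test, 6 libraries against 6, p = 0.00433, adjusted p = 0.0130). With 6 libraries against 6, p cannot fall under 0.00216. Over the members that pass the filter, the difference was 7.14 points and p was 0.195 (exact permutation test). The number of counts per covered member moved the other way, from 8.07 ± 2.08 in WC and 6.50 ± 0.822 in WP to 5.03 ± 0.357 in BC and 5.60 ± 0.767 in BP (SD, n = 3), and its part in the result was not tested. The rise was not particular to the D interior. Loci with a count made up 13.9% to 30.3% under W and 29.0% to 40.2% under B light in the A interior, 13.96% to 29.9% and 28.7% to 39.6% in the B interior, and 12.5% to 25.6% and 25.1% to 37.1% in the D distal segments. With every library thinned to the smallest total, the difference was 10.8 points (exact permutation test, p = 0.00433).

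The ratio of D interior to A interior density was 1.07, 1.11 and 1.12 in WC and 1.12, 1.12 and 1.11 in WP, and 1.06, 1.03 and 1.05 in BC and 1.10, 1.05 and 1.02 in BP. Only WC replicate 1 and BP replicate 1 overlapped between the light conditions. The mean was 1.05 ± 0.0259 under B light and 1.11 ± 0.0187 under W light, a difference of -0.0570 (exact permutation test, 6 libraries against 6, p = 0.00433, adjusted p = 0.0130). Without 1 library at a time, it lay between -0.0655 and -0.0510. Over the loci that pass the filter it was -0.101 (exact permutation test, p = 0.00433). The densities behind the ratio differed between the groups under B light. In BC the D interior was low, with a density of 79.8 ± 0.396 against 83.6 ± 2.43 in WC, with 76.1 ± 0.885 against 75.7 ± 0.417 in the A interior. In BP the D interior stood at 83.05 ± 0.605 and the A interior at 78.6 ± 2.47 (SD, n = 3 each).

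The other library-level measures did not pass after adjustment. Members held 22.64%, 23.77% and 23.87% of the nuclear count in WC, 22.46%, 22.24% and 22.32% in BC, 23.98%, 24.02% and 23.63% in WP, and 23.42%, 23.09% and 23.27% in BP. The BC libraries were below all others, with WC replicate 1 next to them. The difference was -0.852 percentage points between B and W light (exact permutation test, p = 0.0281, adjusted p = 0.0774) and 0.687 points between PUT and control (exact permutation test, p = 0.0671, adjusted p = 0.117, 6 libraries against 6). The ratio of D interior to D distal density was 1.34 ± 0.0791 in WC, 1.23 ± 0.00250 in BC, 1.38 ± 0.0306 in WP and 1.38 ± 0.0362 in BP (SD, n = 3). Its difference was 0.0991 between PUT and control (exact permutation test, p = 0.0325, adjusted p = 0.0816, 6 libraries against 6) and -0.0556 between B and W light (exact permutation test, p = 0.227). The ratio to the B interior differed by -0.0330 between B and W light and by 0.0314 between PUT and control (exact permutation tests, p = 0.0346 and 0.0498, adjusted p = 0.0816 and 0.103).

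**Figure D3:**
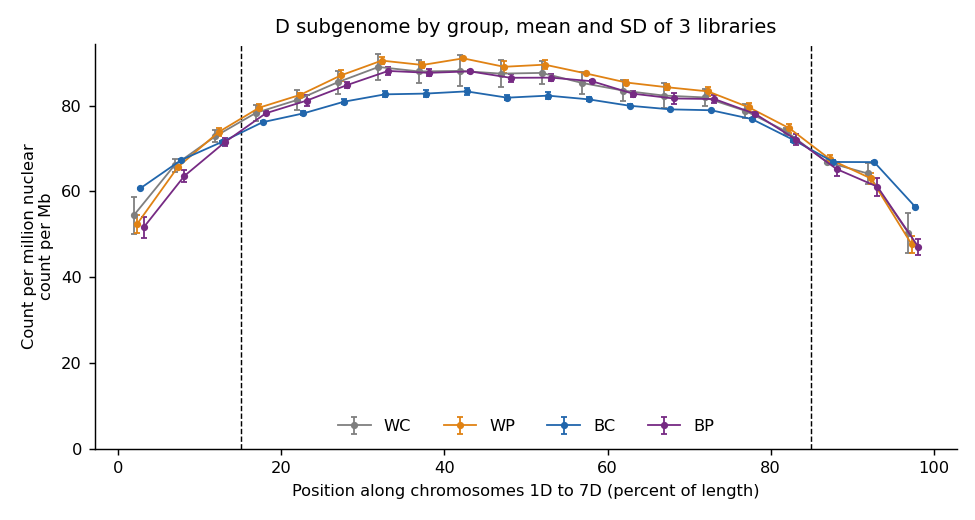
Count density (CPM of nuclear counts per Mb) along chromosomes 1D to 7D in bins of 5% of the length, by group (points, mean of 3 libraries; bars, SD). Dashed lines mark the interior. The BC profile is the flattest: it is the lowest of the groups in the middle (83.3 at 40% to 45%) and the highest at the ends (60.7 at 0% to 5%).

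The D interior of BC was flatter along the chromosome than that of the other groups. In the bin from 40% to 45% of the length the density was 83.3 ± 0.853 in BC, against 88.1 ± 3.601 in WC, 91.0 ± 0.259 in WP and 88.0 ± 0.304 in BP (SD, n = 3). At the inner edge of the interior, from 15% to 20%, it was 76.1 ± 0.261 in BC, 78.3 ± 1.84 in WC, 79.5 ± 0.816 in WP and 78.2 ± 0.422 in BP. At the chromosome end, outside the members, the order turned, with 60.7 ± 0.103 in BC and 51.6 to 54.4 in the other groups. The other subgenomes shared part of this pattern. At 0% to 5% of the length BC had 50.1 in A and 44.8 in B, against 42.9 to 44.6 and 38.3 to 41.4 in the other groups. From 40% to 45% it had 75.7 in B, against 77.5 to 78.8 in the other groups. In A it had 80.2 in that bin, equal to the 80.2 of WC, with 81.2 in WP and 83.9 in BP. From 30% to 35% of A, BC lay above WC, with 79.1 against 78.7. The low middle of BC was thus seen in B and not throughout A. These values were not tested, since an exact permutation test of 3 libraries against 3 cannot go below p = 0.1.

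Genes covered little of the D interior, and the reads on them set BC apart. The interior held 17177 annotated protein-coding genes, whose bases made up 2.81% of it. Of all members 85436 (3.63%) overlapped such a gene, and of the members passing the filter 2594 (1.85%), against 2.08% of all loci that passed. With genes extended by 3000 bp on both sides the share was 5.62%, and with at least 0.5 of the locus inside the gene it was 0.879%. A member that passed was found in 2100 of the genes (12.2%), in 460 of 2817 long non-coding RNA genes (16.3%), in 443 of 1893 pseudogenes (23.4%) and in 23 of 535 tRNA genes (4.30%). Of these 4 types pseudogenes, disabled gene copies, most often held a member that passed, whereas members of any count were found in 95.56% of them and in 97.45% of the protein-coding genes.

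**Figure D4:**
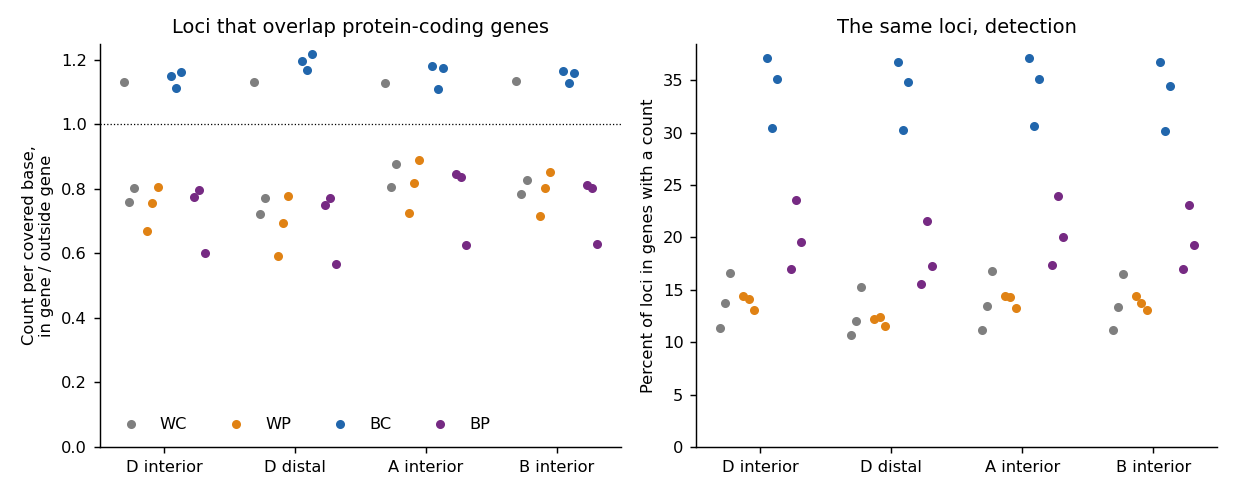
Left, count per covered base in loci that overlap protein-coding genes divided by that in other loci. Right, percent of the loci in genes with a count. Points are libraries, by group, in the D interior and the 3 segments it is compared with. The BC libraries and WC replicate 1 lie above 1 in the left panel and all others below. In the right panel the BC libraries lie between 30.2% and 37.1% in the 4 segments, above all others.

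Members in genes took 2.91%, 1.97% and 2.08% of the member count in WC, 2.96%, 2.86% and 2.99% in BC, 1.74%, 1.97% and 2.09% in WP, and 2.01%, 2.06% and 1.57% in BP. The BC libraries and WC replicate 1 lay between 2.86% and 2.99%, and the other 8 libraries between 1.57% and 2.09%. Per covered base, genes in these 4 libraries held 1.11 to 1.16 times the count of the rest of the D interior, and 0.600 to 0.806 times in the others. The share of members in genes with a count was 30.5% to 37.1% in BC, 16.999% to 23.5% in BP, 13.1% to 14.4% in WP and 11.3% to 16.6% in WC. WC replicate 1 was the lowest of all in this share and among the highest in the count, so that its gene counts lay on few loci. The D distal segments and the A and B interiors showed the same order, with ratios of 1.17 to 1.22, 1.11 to 1.18 and 1.13 to 1.17 in BC. The pattern was noticed in these values and is given without a test. It is not particular to the D interior.

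Some members had a count in every library of one group and in none of another. A count in every BC library and in no WC library was found at 46010 members (1.96%, against 1.91% of all loci), and the reverse at 3551 members (0.151%, against 0.139%). With PUT, 16700 members (0.709%, against 0.654% of all loci) had a count in every WP and no WC library and 4949 (0.21%, against 0.201%) the reverse. For BP and BC, 14846 members (0.631%, against 0.568%) had a count in every BP and no BC library and 16069 (0.683%, against 0.716%) the reverse. The shares of members lay near those of all loci. The sparse WC replicate 1 enters each of the WC numbers.

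**Figure D5:**
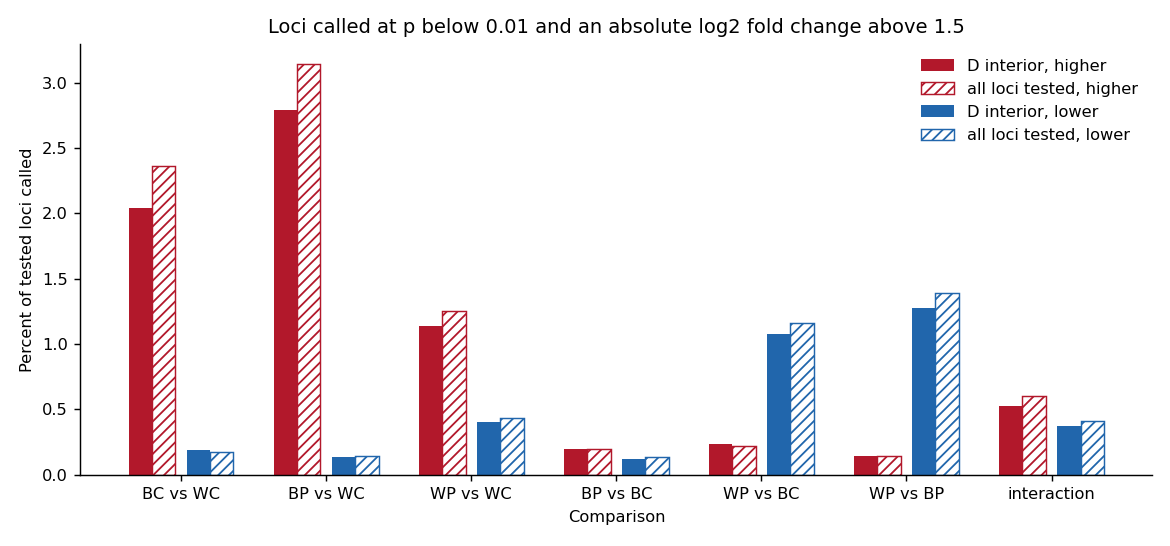
Percent of tested loci called in each comparison (filled bars, 140332 members of the D interior; hatched bars, all 539307 loci tested), with loci higher in the first group in red and lower in blue. The interaction is (WP - WC) - (BP - BC) on the log2 scale. The shares of members lie near those of all loci, with 2.04% against 2.36% for BC vs WC higher and 0.145% against 0.144% for WP vs BP higher.

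Single loci were compared by edgeR (quasi-likelihood) in a fit to all 539307 loci that passed the filter, with 1 coefficient per group. The thresholds of the study served for calls, namely p under 0.01 before adjustment together with a log2 fold change of more than 1.5 in either direction. Adjustment followed Benjamini-Hochberg across every locus tested. Members of the D interior were called at about the rate of all loci, mostly where one group had no counts. The filter asks for counts in 1 group only, so it lets in members that are empty in another group. The scaling by TMM factors lifted the median log2 fold change of all tested loci in the comparisons with WC, to 0.21 for BC, 0.30 for BP and 0.17 for WP, and with library sizes alone these medians were -0.01, -0.02 and 0.02. The members lay 0.06 and 0.05 below the median of all loci in BC vs WC and BP vs WC, and 0.07 above it in WP vs BC and WP vs BP. The comparisons share libraries, those with WC above all, so their calls are not independent of each other.

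Blue light without PUT, BC vs WC, gave calls mostly in the direction of BC. Of the members tested, 2869 (2.04%) were higher in BC and 261 (0.186%) lower, against 2.36% and 0.176% of all loci tested. With library sizes alone in place of TMM factors, the share of calls that were higher fell from 91.7% to 80.1%. Without BC replicate 2 the calls numbered 1897 instead of 3130. No WC library had any count at 73.6% of the members called higher, and no BC library at 69.3% of those called lower. These shares are in part set by the filter, and the share of such members among all those tested is not given here. Across chromosomes the share called higher ranged from 1.97% (5D) to 2.22% (4D). Members in genes were called higher at 2.70% (70 of 2594) and those outside at 2.03%. This order did not hold in every comparison. The shares were 1.23% in genes and 1.14% outside for WP vs WC higher. They were 2.27% and 2.8% for BP vs WC higher, and 0.732% and 1.29% for WP vs BP lower. The same split over all loci tested is not given here.

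PUT under white light, WP vs WC, gave calls in both directions. There were 1598 members higher in WP (1.14%) and 569 lower (0.405%), against 1.25% and 0.436% of all loci. With library sizes alone the share of higher calls fell from 73.7% to 57.7%. Without WC replicate 3 there were 3794 calls instead of 2167, and without WP replicate 3 there were 1437. No member had an adjusted p below 0.05 (edgeR), against 5 of all loci. An unadjusted p below 0.05 was reached by 8393 of the 140332 members tested. The filter picks members by their counts, so a share of 0.05 is no benchmark for this number. DESeq2 called 4358 members.

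PUT under blue light, BP vs BC, gave the fewest calls. There were 275 members higher in BP (0.196%) and 173 lower (0.123%), against 0.196% and 0.137% of all loci. The direction depended on the setting, since with library sizes alone 217 were higher and 230 lower, and without BP replicate 2 there were 124 higher and 193 lower. Without WC replicate 1, which enters only through the shared fit, 725 members were called instead of 448. No member had an adjusted p below 0.05 (edgeR), against 10 of all loci. An unadjusted p below 0.05 was reached by 3012 of the 140332 members tested, and here too a share of 0.05 is no benchmark. DESeq2 called 1350 members.

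Between the PUT groups, WP vs BP, most calls were lower under white light. There were 204 members higher in WP (0.145%) and 1796 lower (1.28%), against 0.144% and 1.39% of all loci. With library sizes alone, 20.8% of the calls were higher in place of 10.2%. Without BP replicate 3 only 654 members were called instead of 2000, and without WP replicate 3 there were 1250. In BP vs WC, 3915 members were higher in BP (2.79%) and 193 lower (0.138%), against 3.14% and 0.143%. With library sizes alone, 81.3% of these calls were higher in place of 95.3%. Without BP replicate 3 there were 1776 calls instead of 4108, and without BP replicate 2 there were 2662. In WP vs BC, 334 members were higher in WP (0.238%) and 1510 lower (1.08%), against 0.22% and 1.16%, and without BC replicate 2 there were 940 calls, and without WP replicate 3 there were 1167, instead of 1844.

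An adjusted p below 0.05 was reached by 73 members in at least 1 comparison (0.052%, against 0.0693% of all loci). They lay on all 7 chromosomes, from 3 on 5D to 14 each on 1D and 3D. BP vs WC gave 62 of them, all higher in BP, BC vs WC 17, WP vs BP 6 and WP vs BC 8. Of all loci, these comparisons gave 318, 75, 41 and 59. Of the 73, 42 had a count of 0 in all WC libraries, which the filter allows, and BP replicate 3 was the highest library at 46. The same numbers over all loci that passed are not given here. Only 3 of the 73 overlapped a protein-coding gene. Their mean count was 12.0 at the median. The likelihood ratio test gave 1266 such members and DESeq2 3287, against 5609 and 14264 of all loci. These members held 64 and 65 of the 73.

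The members with the highest counts were few. Of the 140332 tested, 16 had a mean count above 100, against 167 of all 539307 loci tested. At 9 of the 16 members BC had the highest scaled mean. At 8 of the 16 the adjusted p was below 0.05 in at least 1 comparison. The same numbers for the 167 loci are not given here, so neither is shown to be particular to the D interior. The member with the highest mean count, and also the smallest adjusted p, lay outside annotated genes at 1D, 147162870 to 147165382. Its counts were 464, 111 and 173 in WC, 604, 802 and 643 in BC, 110, 179 and 312 in WP, and 448, 461 and 284 in BP. The BC libraries were above all others, and WC replicate 1 came next. Scaled by library, BC was 4.03-fold above WC (log2 fold change 2.01 ± 0.25 SE, adjusted p = 1.17e-10, edgeR) and WP lay 2.15 ± 0.25 (SE, log2) below BC, with an adjusted p of 1.93e-12. For the latter the likelihood ratio test gave an adjusted p of 0.231 and DESeq2 one of 0.0177.

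A second member, at 1D from 395747225 to 395748824, had 232, 70 and 112 counts in WC, 341, 403 and 406 in BC, 55, 41 and 87 in WP, and 260, 189 and 97 in BP. Again BC stood above every other library. BC was 4.06-fold above WC (adjusted p = 0.000318) and 8.21-fold above WP (adjusted p = 9.66e-12, edgeR). At 2D from 199145781 to 199147590 the counts were 207, 72 and 79 in WC, 278, 278 and 310 in BC, 33, 39 and 98 in WP, and 226, 190 and 65 in BP. BC was again the highest group, 3.54-fold above WC (adjusted p = 0.0255) and 6.67-fold above WP (adjusted p = 3.59e-07, edgeR).

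Within a gene, the member of this kind with the smallest p lay in LOC123180887, for which the sources used here give no description, at 1D from 183190548 to 183192693. It had 257, 50 and 97 counts in WC, 430, 544 and 289 in BC, 36, 107 and 150 in WP, and 185, 241 and 97 in BP. The BC libraries were the highest, and WC replicate 1 lay above every other library outside BC. BC was 4.61-fold above WC (log2 fold change 2.20 ± 0.34 SE, adjusted p = 4.18e-06), and it was the first gene of BC vs WC higher and of WP vs BC lower (5.63-fold, adjusted p = 2.5e-08). It was also the first of BP vs BC lower, where BP was 2.89-fold below BC (adjusted p = 0.204, edgeR).

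BC was also the highest group at 3 further members with high counts and an adjusted p below 0.05. The member at 1D from 147166444 to 147167907, close to the first member on 1D and within LOC123180806, had 228, 105 and 45 counts in WC, 222, 299 and 264 in BC, 47, 48 and 80 in WP, and 164, 159 and 102 in BP. WC replicate 1 lay within the range of BC, and BC vs WC had an adjusted p of 0.118 (3.07-fold). On 4D, the member from 207289545 to 207293124 had scaled means of 91.7 in WC and 398 in BC (4.33-fold, adjusted p = 0.000844, edgeR). The member on 4D from 207321391 to 207323504 overlaps LOC123097282, LOC123097283 and the serine tRNA gene TRNAS-UGA, and had 95.3 in WC and 375 in BC (3.94-fold, adjusted p = 0.00228, edgeR). The significance of these 7 members with BC highest depended on the test. In the comparisons where the quasi-likelihood test gave an adjusted p below 0.05, the likelihood ratio test gave adjusted p values of 0.125 to 0.246 for BC vs WC and of 0.151 to 0.231 for WP vs BC, so that none passed. DESeq2 gave 0.0103 to 0.0329 and 2.64e-08 to 0.0177. Without WC replicate 1, the log2 fold changes of BC vs WC that had passed rose from between 1.82 and 2.20 to between 2.36 and 2.97.

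Not all members with high counts moved with the groups. The member at 2D from 383229953 to 383230259 had scaled means of 247 in WC, 257 in BC, 394 in WP and 268 in BP, that at 3D from 256692254 to 256695969 of 225, 234, 267 and 202, and that at 7D from 396327052 to 396332011 of 185, 193, 238 and 237. Their groups overlapped and none was called. The member at 7D from 459812096 to 459816162 was set by single libraries. It had 25, 47 and 34 counts in WC, 35, 141 and 48 in BC, 33, 55 and 25 in WP, and 33, 191 and 607 in BP. BP replicate 1 was at the level of WC, and BP replicate 3 was far above all others. The fit placed BP 10.9-fold above WC (adjusted p = 1.1e-08, edgeR), although the groups overlapped. Without BP replicate 3 the log2 fold change fell from 3.44 to 1.86 (unadjusted p = 0.000608).

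Most named genes had low counts. For a group with no count in any library, a fold is given against a floor of 3 counts over that group. It is a lower bound only as to the counting error of the empty group. The counting error of the other group and the spread between libraries are not covered. Where a group had 1 to 3 counts, the ratio is given with an exact 95% counting interval. None of the genes from here on reached an adjusted p below 0.05 (edgeR).

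Of the described genes with a member higher in BC than in WC, 6 follow. LOC123182380, described as an LRR receptor-like kinase (such kinases sense signals at the cell membrane), had no count in WC, 6, 11 and 0 in BC, 13, 7 and 34 in WP, and 5, 4 and 0 in BP. WP was higher throughout than WC, and BC overlapped it at 0. The bounds were at least 8.2-fold for BC and at least 19.6-fold for WP over WC (unadjusted p = 0.00632 and 0.00125, edgeR). LOC123054002 encodes the ribosomal protein L14-1 of the large subunit. Its 1, 13 and 16 counts in BC stood against none in WC, at least 14.4-fold. LOC123097263, described as nicotianamine aminotransferase, an enzyme on the way to the iron-binding phytosiderophores of grasses, had 14, 12 and 0 counts in BC, 0, 19 and 24 in BP and none in WC, at least 12.5-fold and at least 19.4-fold.

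LOC123078492, an FCS-like zinc finger gene, had no count in WC and 15, 12 and 4 in BC, and was called higher than WC in each other group, at least 14.9-fold in BC, at least 12.7-fold in BP and at least 5.78-fold in WP. LOC100286388 is described as rough sheath 1, in maize a homeobox gene of the shoot meristem. It had 0, 0 and 4 counts in WC, 8, 38 and 4 in BC, 13, 3 and 0 in WP, and 4, 12 and 15 in BP, with BC 17.2-fold above WC. The lowest BC library equalled the highest WC library. LOC123121679 encodes a pentatricopeptide repeat protein, a family that processes RNA in mitochondria and plastids. Its counts in BC were 2, 24 and 0, against none in WC. Both named members lower in BC than in WC had 1 count in all of BC. LOC123144490, which has no description, came first, with 21, 23 and 8 counts in WC, 0, 1 and 0 in BC, 7, 27 and 8 in WP, and 19, 13 and 8 in BP. Every library of the other groups lay above every BC library. Its ratio of WC to BC was 36.2 (counting interval 6.22 to 1460), with an unadjusted p of 0.00276 (edgeR). LOC123165466, a glycosyltransferase related to BC10, which in rice acts in cell wall formation, had 8, 22 and 19 counts in WC and 1, 0 and 0 in BC, a ratio of 34.1 (counting interval 5.85 to 1380).

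Under white light, the member with the smallest p among those in genes that were higher with PUT lay in LOC123079879, which has no description. It had no count in WC, 21, 10 and 8 in BC, 14, 7 and 17 in WP, and 19, 8 and 3 in BP. All 9 libraries outside WC had a count. The bound of WP over WC was at least 13.9-fold (unadjusted p = 0.000468, edgeR). LOC123122878, which encodes a homolog of LEO1, a subunit of the Paf1 complex that travels with RNA polymerase II, is a gene that the study named. Of the 19 members in it, 1 passed the filter, at 5D from 471925097 to 471926292. It had no count in WC, 0, 0 and 3 in BC, 6, 19 and 21 in WP, and 3, 7 and 2 in BP. WP was above all WC and BC libraries and overlapped BP. WP was at least 16.9-fold above WC (unadjusted p = 0.00466, edgeR). LOC123076178, an F-box and kelch-repeat gene of the kind that selects proteins for ubiquitination, had 5, 11 and 14 counts in WP and none in WC, at least 11-fold.

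In the other direction, LOC123076197, which has no description, came first in WP vs WC lower and in WP vs BP lower. It had 10, 7 and 14 counts in WC, 19, 12 and 10 in BC, none in WP, and 5, 23 and 31 in BP. WP alone had no count. WC was at least 9.4-fold and BP at least 23.7-fold above WP (unadjusted p = 0.000428 and 1.99e-05, edgeR). LOC123053274, a G-type lectin receptor-like kinase gene, had 22, 0 and 10 counts in WC, 14, 0 and 20 in BC, none in WP, and 2, 0 and 0 in BP. LOC123164228, described as mitochondrial ribosomal protein S7, had 0, 20 and 0 counts in WC, 12, 27 and 15 in BC, none in WP, and 2, 9 and 12 in BP. One library carried the WC value, and BP was at least 9.23-fold above WP.

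Under blue light, the first member called higher with PUT lay in LOC123145097, a pentatricopeptide repeat gene that the study named. The gene holds 12 members, of which 2 passed the filter. The member at 6D from 361186707 to 361187392 had 0, 7 and 5 counts in WC, none in BC, 0, 10 and 36 in WP, and 0, 17 and 17 in BP. The groups overlapped at 0 because 1 library in each of WC, WP and BP had no count. It was the first of BP vs BC higher, at least 10.5-fold, and of WP vs BC higher, at least 11.6-fold (unadjusted p = 0.00231 and 0.00183, edgeR). The other member, at 6D from 361173408 to 361175980, was not called in any comparison and had scaled means of 13.8 in WC, 6.96 in BC, 22.4 in WP and 6.81 in BP. LOC123079388, also a pentatricopeptide repeat gene, had 5, 0 and 0 counts in BC and 17, 20 and 21 in BP, a 10.3-fold difference, with 6, 14 and 16 in WC and 20, 11 and 29 in WP.

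Between the other groups, LOC123121856, with no description, was the first gene of BP vs WC higher. It had no count in WC, 10, 8 and 13 in BC, 0, 0 and 18 in WP, and 10, 27 and 25 in BP, so that both groups under B light lay above WC, BP at least 26.6-fold (adjusted p = 0.0615, edgeR). LOC123077824 was the first of BP vs WC lower, with 23, 29 and 38 counts in WC, 23, 1 and 21 in BC, 28, 26 and 25 in WP, and 5, 3 and 3 in BP. BP was below every WC and WP library, 6.79-fold below WC. LOC123144488, an uncharacterized gene, was the first of WP vs BP higher, with 0, 15 and 13 counts in WC, 6, 4 and 12 in BC, 5, 4 and 45 in WP, and 0, 1 and 0 in BP, a ratio of 48.7 (counting interval 8.38 to 1960). LOC123180526 is described as FolD, an enzyme of folate-bound one-carbon units, which supply methyl groups. It had 22, 0 and 11 counts in WC, 8, 11 and 12 in BC, 2, 0 and 0 in WP, and 2, 5 and 33 in BP. BP stood 22.2-fold above WP (counting interval 5.75 to 189), and their libraries met at 2 counts. BP replicate 3 carried most of it, since without that library the log2 fold change went from -4.43 to -2.23 (unadjusted p = 0.247, edgeR).

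A PUT effect that differed between the light conditions was tested by the interaction. Of the members, 744 (0.53%) were called with a higher PUT effect under W than under B light and 522 (0.372%) with a lower one, against 0.601% and 0.411% of all loci. Without WC replicate 3 there were 2381 calls instead of 1266, and without WP replicate 1 the direction turned, with 578 higher and 625 lower. The first gene in the positive direction was LOC123074591, described as D-inositol 3-phosphate glycosyltransferase 2-like. It had no count in WC and BP, 0, 8 and 9 in WP, and 2, 12 and 12 in BC, so that counts were found with PUT under W light and without PUT under B light. No member had an adjusted p below 0.05 (edgeR), against 2 of all loci. An unadjusted p below 0.05 was reached by 6203 of the 140332 members tested, and again a share of 0.05 is no benchmark. DESeq2 called 2636 and gave 1 member an adjusted p below 0.05.

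Many calls of the named genes depended on single libraries. Of the 26 named members that were called, 11 stayed called in their strongest comparison without any 1 library, and 15 did not. LOC100286388 went from a log2 fold change of 4.0 to 2.49 without BC replicate 2 (unadjusted p = 0.196, edgeR) and was also lost without WC replicate 1 or 2. LOC123144488 went from 5.15 to 3.23 without WP replicate 3 (unadjusted p = 0.135, edgeR) and was also lost without BP replicate 1 or 3, and LOC123180526 was lost without BP replicate 3 or WP replicate 2 or 3. The call was lost without WP replicate 3 at LOC123145097 (WP vs BC, 6.85 to 5.3) and LOC123182380 (7.08 to 6.26), and without BP replicate 3 at LOC123097263 (BP vs WC, 7.05 to 6.29) and LOC123121679 (BP vs WC, 6.63 to 5.41). LOC123144490 was lost without BC replicate 1 or 3, and LOC123079388 without BC replicate 2 or 3, BP replicate 2 or 3, or WP replicate 1 or 3. LOC123053274 (WP vs BC) was lost without any 1 WP library or without BC replicate 1 or 3. LOC123054002 was lost without any 1 WC library or without BC replicate 2 or 3, and LOC123122878 without any 1 WC library or without WP replicate 2 or 3. LOC123077824 was lost without any 1 BP library or without WC replicate 2 or 3, and LOC123165466 without WC replicate 2 or 3, BC replicate 2 or 3, or WP replicate 1. LOC123076178 stayed called only without WP replicate 1 or BC replicate 3.

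The gene lists gave few members to follow. Of the 17177 protein-coding genes of the D interior, 231 have a description in the sources used here. In them the words for polyamine metabolism found 1 gene, LOC123125309, and those for DNA methylation and small RNA silencing 1 gene, LOC123077721, neither with a member that passed the filter. The words for the methyl donor cycle, light receptors and signalling, photosynthesis, and disease resistance and receptor kinases found 0 genes. The last list was written with other words than the descriptions of LOC123182380 and LOC123053274, the receptor-like kinase genes named above, and so did not count them. None of the 9 genes chosen for qRT-PCR lies in the D interior.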

How the data were processed

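DNA of leaves was pulled down with a 5-methylcytosine antibody (MeDIP), made into single-strand libraries and sequenced in read pairs. The authors trimmed reads with Trim Galore and Cutadapt after FastQC, aligned them with BWA to the Chinese Spring reference (IWGSC RefSeq v2.1), and used bedtools to define loci over the libraries and to count reads, and the deposited values are these counts per locus, not normalized. Removal of duplicate reads and tool versions are not given in the sources used here, and input libraries were not used here. No molecular identifiers are named, so reads can be copies of one molecule. Intervals cover counting error only, and floors only that of the empty group.

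Counts were tested in R 4.3.3 with edgeR 4.0.16 (quasi-likelihood test, TMM factors over the 539307 loci kept, all 12 libraries, 1 coefficient per group). The study's filter (2 or more libraries of 1 group over a count of 10) and thresholds (p below 0.01, absolute log2 fold change above 1.5) were kept. Taken over all loci together, the dispersion was estimated at 0.951. This value alone did not set the spread in the test, since the SE at high counts were smaller than it would give. For BC vs WC the SE (log2) was 0.25 at the member with a mean count of 383, 0.34 at 207 and 0.45 at 106. Estimates of single loci were drawn fully to the shared ones (infinite prior degrees of freedom). The spread of one locus between libraries therefore does not enter its p. The fit was tested on simulated counts of 30000 loci with a shared dispersion. For BC vs WC it called 12.0% of the changes of 2 on the log2 scale and 89.5% of those of 5. Of the unchanged loci it called 0.708% and 0.758%. Library-level values were compared with exact permutation tests (Python 3.11.15, scipy 1.17.1). The alternatives were the likelihood ratio test, DESeq2 1.42.0, library sizes without TMM, other count filters and none, a replicate block, an interior from 20% to 80%, and leaving out each library.

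Genes came from the RefSeq annotation of the same build, and descriptions from the study's tables, which list genes with changed loci. Named genes were, per comparison and direction, the called member in a protein-coding gene with the smallest p and up to 6 more for 4 comparisons, without genes lacking a description, then the 5 members with the smallest adjusted p, the 5 with the highest mean count, and genes the study named. The 3 further members with high counts and the counts within genes were chosen after their values were seen. The members and lists were chosen with earlier results of these data known.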

Additional observations from a re-analysis of the deposited data

Results flagged for a closer look

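The PUT effect differed between W and B light, by the interaction term of the edgeR fit at an unadjusted p below 0.01, at 1266 members. None of them had an adjusted p below 0.05. The log2 difference was 11.88 ± 3.56 (SE, adjusted p = 0.961, edgeR) at LOC123074591, where WC and BP had no count, and -6.58 ± 2.07 (SE, adjusted p = 0.961, edgeR) at LOC123076197, where WP had no count. Fitted values of members with a group at 0 depend on the prior count of the fit and are no measure of size.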

How the results depend on the processing

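The numbers of calls depended on the test and the filter more than on the limits of the interior. In the order BC vs WC, BP vs WC, WP vs WC, BP vs BC, WP vs BC, WP vs BP and interaction, the main test called 3130, 4108, 2167, 448, 1844, 2000 and 1266 members. The likelihood ratio test called 6078, 7180, 5331, 1499, 3977, 4188 and 3213, and DESeq2 called 5951, 7832, 4358, 1350, 4064, 4925 and 2636. A filter at a count above 5 gave 6782, 8029, 4370, 851, 3233, 3419 and 5706, and one above 20 gave 308, 551, 141, 44, 208, 323 and 76. With no filter the numbers were 7709, 9841, 5535, 1096, 3523, 4015 and 6847. Each filter tests a different number of members, so these numbers cannot be read as shares. The shares of all loci called under the alternative settings are not given here. The cause of the differences between settings was not tested. With library sizes alone BP vs BC had 447 calls and the opposite direction. With an interior from 20% to 80% every count stayed within 1.5 times.

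Without 1 library at a time the counts ranged from 1897 to 4620, 1776 to 5423, 1437 to 3794, 317 to 725, 940 to 2619, 654 to 2952 and 848 to 2381. The direction turned for BP vs BC without BP replicate 2 (317 calls) and for the interaction without WP replicate 1 (1203 calls).

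The replicate numbers gave no sign of pairing between libraries. The correlations of libraries with the same number lay between -0.095 and 0.147, and 1 of 18 was above 0.1. Those with other numbers lay between -0.184 and 0.235, and 1 of 36 was above 0.1. Only 3 libraries correlated best with their own number. At the low counts of most members these values cannot exclude a pairing. With the replicate number as a block the calls were 2088, 2544, 1178, 210, 1079, 1028 and 645.

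Over the loci kept by the filter, the B minus W difference in members with a count was 7.14 points and no longer passed. The D distal ratio gave 0.0128 for B minus W, a reversed sign, and 0.0340 for PUT minus control. The A interior ratio gave -0.0122 for PUT minus control, reversed, and the B interior ratio 0.0165, or 0.0305 with an interior from 20% to 80%. Without 1 library at a time, the share of the nuclear count differed by -1.05 to -0.740 between B and W light and by 0.558 to 0.883 between PUT and control. The D distal ratio differed by -0.0795 to -0.0396 and by 0.0875 to 0.1203, and the B interior ratio by -0.0418 to -0.0262 and by 0.0243 to 0.0382. The PUT difference in members with a count ranged from -1.75 to 3.50 points, with -1.75 without WC replicate 1 and -0.280 without BP replicate 3. Of 26 called loci named in the text, 16 stayed called with the block and 18 to 23 without 1 library.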
